A study of Homo sapiens with 18 samples.

Results

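Succinate dehydrogenase is built from the subunits SDHA, SDHB, SDHC and SDHD with the help of the assembly factors SDHAF1, SDHAF2, SDHAF3 and SDHAF4, and these 8 genes, taken by symbol from a table of 58870 genes, are described here across 6 conditions in which the transcription factor NRF1 was depleted and put back as either of 2 isoforms. The RNA-Seq libraries came from HEK293 Flp-In cells, an established human embryonic kidney line with a docking site for transgenes, and there were 3 libraries per condition and 18 in all. The conditions were siNRF1 (siRNA against NRF1) and siNT (control siRNA) without a transgene, siNRF1+NRF1-FL and siNT+NRF1-FL in cells with a full-length NRF1 transgene, and siNRF1+NRF1-ΔE7 and siNT+NRF1-ΔE7 (NRF1-DE7 in the sample titles) in cells with NRF1 lacking exon 7. The FLAG-tagged transgenes were induced with doxycycline, are changed at the siRNA site so that siNRF1 does not target them, and sit in stable lines for which the number of founding clones is not given. Every library, those without a transgene included, is labelled as treated with siRNA and doxycycline. The labels place doxycycline 24 h after transfection and the study's methods place it earlier. Whether cells without a transgene are the parental line is not given.

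The members were chosen by the measured RNA level of SDHA, which followed full-length NRF1 in these libraries. Its values in any comparison that uses siNRF1 libraries are therefore given as a description with no test. The 7 other members are tested, and SDHA is tested only in contrasts between siNT groups.

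Succinate dehydrogenase (respiratory complex II) oxidises succinate to fumarate in the tricarboxylic acid (TCA) cycle and passes the electrons to ubiquinone in the inner mitochondrial membrane. SDHA is the flavoprotein that carries FAD and binds succinate, SDHB holds the iron-sulfur clusters, and SDHC and SDHD anchor the enzyme in the membrane and bind heme and ubiquinone. SDHAF2 and SDHAF4 act on SDHA, helping it to gain FAD and to join SDHB, while SDHAF1 and SDHAF3 act on the iron-sulfur clusters of SDHB. NRF1 binds GC-rich palindromes in the promoters of many nuclear genes for mitochondrial proteins. All members are nuclear genes.

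In hg38 with GENCODE v44, SDHA lies on the plus strand at chr5:218303-257082 with 15 exons in its canonical transcript, SDHB on the minus strand at chr1:17018664-17054032 (8 exons), SDHC on the plus strand at chr1:161314381-161363206 (6 exons) and SDHD on the plus strand at chr11:112086824-112120016 (4 exons). SDHAF1 is a single-exon gene on the plus strand at chr19:35995188-35996312, SDHAF2 lies on the plus strand at chr11:61430042-61446733 (4 exons), SDHAF3 at chr7:97117698-97181763 (2 exons) and SDHAF4 at chr6:70566917-70589569 (3 exons), both on the plus strand. SDHA, SDHD and SDHAF2 share part of their span with annotated genes of the same strand, and SDHAF3 with a pseudogene of the opposite strand, so reads in those stretches are uncertain.

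Promoter windows from RefSeq (GRCh38.p14, 250 bases before to 50 after the annotated start) were available for 7 members and were searched on both strands for the NRF1 motif GCGCANGCG. They are shown because the members differ in the number of matches to this motif. The windows of SDHA (chr5:218070-218369, plus strand), SDHAF3 (chr7:97117448-97117747, plus strand), SDHD (chr11:112086623-112086922, plus strand) and SDHB (chr1:17053983-17054282, minus strand) read 5′ to 3′ as follows, with motif matches in capitals:
SDHA: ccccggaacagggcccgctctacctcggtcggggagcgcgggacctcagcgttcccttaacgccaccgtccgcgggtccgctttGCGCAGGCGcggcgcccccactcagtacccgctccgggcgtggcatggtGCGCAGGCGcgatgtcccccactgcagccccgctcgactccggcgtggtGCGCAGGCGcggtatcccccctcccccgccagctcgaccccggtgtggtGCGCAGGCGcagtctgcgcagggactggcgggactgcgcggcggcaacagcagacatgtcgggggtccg
SDHAF3: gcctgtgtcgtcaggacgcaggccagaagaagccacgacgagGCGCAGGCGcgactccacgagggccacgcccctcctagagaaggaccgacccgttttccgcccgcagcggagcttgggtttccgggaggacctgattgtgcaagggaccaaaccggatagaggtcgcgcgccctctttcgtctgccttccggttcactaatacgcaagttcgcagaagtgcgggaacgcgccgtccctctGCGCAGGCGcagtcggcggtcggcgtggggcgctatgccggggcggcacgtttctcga
SDHD: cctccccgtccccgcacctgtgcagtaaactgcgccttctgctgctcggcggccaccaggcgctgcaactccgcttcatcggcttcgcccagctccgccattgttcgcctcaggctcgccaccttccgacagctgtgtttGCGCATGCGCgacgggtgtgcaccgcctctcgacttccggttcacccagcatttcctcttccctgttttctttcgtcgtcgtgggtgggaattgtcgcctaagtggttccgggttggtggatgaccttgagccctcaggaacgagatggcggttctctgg
SDHB: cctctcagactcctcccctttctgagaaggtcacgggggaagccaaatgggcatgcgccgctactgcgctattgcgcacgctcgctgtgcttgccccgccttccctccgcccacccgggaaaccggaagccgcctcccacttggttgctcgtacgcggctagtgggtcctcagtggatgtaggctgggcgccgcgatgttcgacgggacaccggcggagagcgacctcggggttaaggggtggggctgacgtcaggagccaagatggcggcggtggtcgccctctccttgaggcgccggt

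SDHA held 4 separate copies of GCGCAGGCG, whose first bases lie at -166, -117, -68 and -19 from the RefSeq start, so that neighbouring copies were each 49 bases apart. SDHAF3 held 2 copies, at -208 and -8. SDHD held 1 palindromic site, at -110, where matches on both strands overlap, and SDHAF4 (chr6:70566680-70566979) 1 match, at -20, on the opposite strand. No match was found in the windows of SDHB, SDHAF1 and SDHAF2. Of 35116 RefSeq windows of this length, 2640 (7.52%) held at least 1 match, 483 (1.38%) held at least 2 separate ones and 10 (0.0285%) held at least 4. These shares count evenly spaced copies as separate matches, and whether those of SDHA are 1 repeated unit was not tested. The 6-letter half-site TGCGCA reads the same on both strands and is not contained in the longer motif, but can overlap it by 5 bases. It was in 8.24% of windows and occurred 5 times in SDHA and 1 time each in SDHB, SDHD, SDHAF2 and SDHAF3. A match is a description of the letters and no evidence of binding, and the RefSeq starts lie 0 to 82 bases downstream of the GENCODE starts (17 bases for SDHA).

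**Figure D1:**
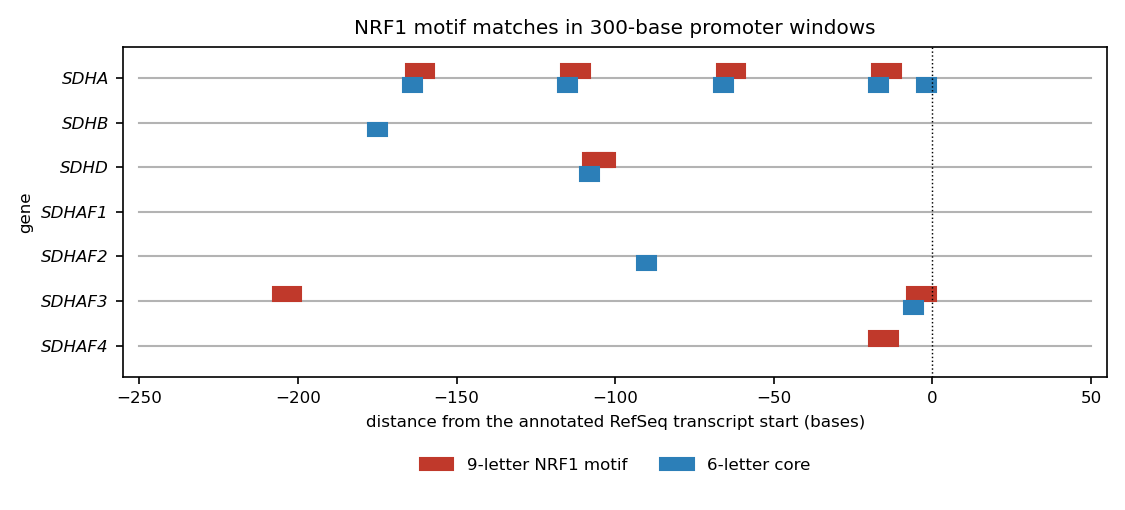
Matches to the 9-letter NRF1 motif (red) and to the 6-letter half-site TGCGCA (blue, labelled as core) in 7 promoter windows, by distance in bases from the annotated RefSeq start (dotted line). SDHA carries 4 evenly spaced motif matches, SDHAF3 2, SDHD and SDHAF4 1 each, and SDHB, SDHAF1 and SDHAF2 none.

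The siRNA targets 19 bases of coding exon 4 of NRF1 (chr7:129677681-129677699, hg38, plus strand). Its guide strand, derived as the complement of the strand that the study lists, is shown because its seed was searched for in the members (seed, bases 2 to 8, in capitals):
siNRF1 guide: aGAUACAGaggacaauagc

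The 7-base match to this seed was in 0 of the 8 members' canonical 3′ UTRs, against 11% of 14261 tested genes with a 3′ UTR. The shorter match, to guide bases 2 to 7, occurred 1 time in the 3′ UTR of SDHD and in no other member. Its share over all genes was not computed. Matches elsewhere in the transcripts were not searched.

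NRF1 itself was read first, as the check of the labels. NRF1 RNA was at 7.19, 9.25 and 7.70 CPM (the count divided by the library total in M, scaled by TMM) in siNRF1 libraries, against 31.1, 29.9 and 29.3 CPM in siNT libraries. It was at 49.3, 50.4 and 49.1 CPM in siNRF1+NRF1-FL libraries, against 52.4, 55.7 and 55.2 CPM in siNT+NRF1-FL libraries. It was at 37.3, 37.9 and 39.9 CPM in siNRF1+NRF1-ΔE7 libraries, against 58.7, 59 and 57.9 CPM in siNT+NRF1-ΔE7 libraries. These counts cannot separate transgene from endogenous RNA. With siNRF1, NRF1 RNA was thus lower in the ΔE7 line than in the FL line (log2 fold change -0.37 ± 0.0451 SE, edgeR quasi-likelihood test, adjusted p = 9.0e-07), a difference that moves with every comparison of the isoforms under siNRF1, and its part in them was not tested.

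Library totals ran from 31.2 to 44.8 M counts. The mitochondrially encoded genes took 1.19 to 1.66% of counts in the siNRF1 libraries of all 3 backgrounds, against 0.767 to 0.975% in the siNT libraries. For the cell type markers alone, CPM is the count per M of the library total without TMM scaling, whose factors ran from 0.944 to 1.07. Of 7 markers of HEK293 cells 6 were above 1 CPM in every library. The sum of the 7 was 2240 to 2283 CPM in siNRF1+NRF1-ΔE7 and 2137 to 2203 in siNT+NRF1-ΔE7 libraries, 1797 to 1890 in siNRF1+NRF1-FL and 1763 to 1815 in siNT+NRF1-FL libraries, and 1966 to 2032 in siNRF1 and 1862 to 1912 in siNT libraries, so that the ΔE7 line was above the others with no overlap. A further 5 of 5 blood and 2 of 2 liver markers were below 1 CPM in every library, with HBB at 0. Of 4 fibroblast markers only COL1A1 was above 1 CPM, and the sum of the 4 was 11.4 to 13.5 CPM in siNRF1 against 10.2 to 11 in siNT libraries, 12.7 to 14.3 in siNRF1+NRF1-FL against 10.9 to 11.3 in siNT+NRF1-FL libraries, and 13.2 to 15.3 in siNRF1+NRF1-ΔE7 against 9.86 to 11.1 in siNT+NRF1-ΔE7 libraries. The sum of 2 muscle markers was 0.457 to 1.31 CPM in the siNRF1 libraries of the 3 backgrounds, against 0.186 to 0.706 CPM in the siNT libraries. The marker sums were not computed with TMM scaling, so their differences between siNRF1 and siNT libraries may not hold on the scale used for the members. The part of these shifts in the results was not tested, and in bulk RNA fewer cells that express a gene and less RNA per cell cannot be told apart.

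SDHA, the catalytic flavoprotein, stood out by following NRF1-FL. Its RNA was at 134, 142 and 136 CPM in siNRF1 libraries, against 238, 229 and 233 CPM in siNT libraries. In the FL line it was at 241, 231 and 228 CPM in siNRF1+NRF1-FL libraries, against 237, 234 and 234 CPM in siNT+NRF1-FL libraries. In the ΔE7 line it was at 133, 129 and 132 CPM in siNRF1+NRF1-ΔE7 libraries, against 243, 236 and 231 CPM in siNT+NRF1-ΔE7 libraries. The 6 libraries with siNRF1 and no NRF1-FL were all below the other 12, with no overlap, and 2 of the 3 siNRF1+NRF1-FL libraries lay within the range of the siNT ones (229 to 243 CPM), the other, at 228 CPM, just below it. The log2 fold change of siNRF1 against siNT was -0.77 without a transgene, -0.01 in the FL line and -0.85 in the ΔE7 line, and that of NRF1-ΔE7 relative to NRF1-FL under siNRF1 was -0.83. These values are those that chose the gene and carry no test.

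In contrasts between siNT groups SDHA did not pass the test in any comparison of lines. Whether the choice of SDHA used these contrasts is not given, and the siNT libraries are the reference of the siNRF1 values above. NRF1-ΔE7 against NRF1-FL gave a log2 fold change of 0.01 (95% interval -0.04 to 0.07, adjusted p = 0.817), NRF1-FL against no transgene 0.01 (-0.05 to 0.06, adjusted p = 0.937) and NRF1-ΔE7 against no transgene 0.02 (-0.04 to 0.08, adjusted p = 0.707; edgeR). Over these libraries NRF1 RNA itself was higher in both transgene lines, by log2 fold changes of 0.85 with NRF1-FL and 0.96 with NRF1-ΔE7.

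**Figure D2:**
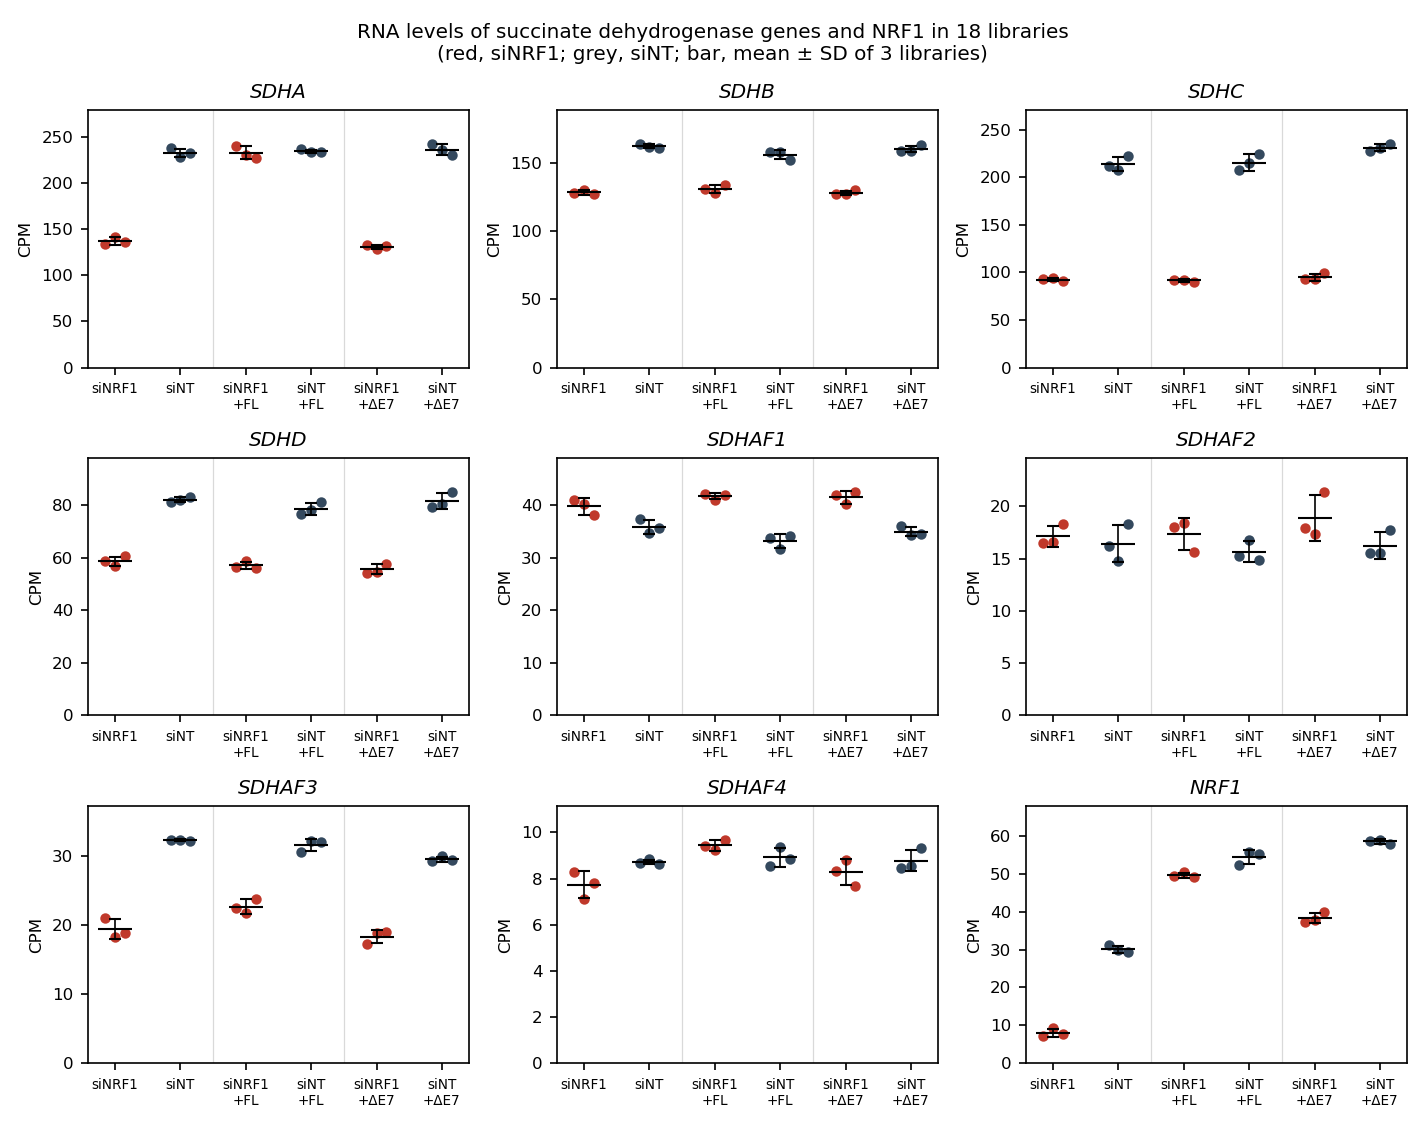
RNA level in CPM of the 8 members and of NRF1 in each of 18 libraries (points) with the mean ± SD of 3 libraries (bars), siNRF1 in red and siNT in grey, for cells without a transgene, with NRF1-FL and with NRF1-ΔE7. SDHA is low in siNRF1 and siNRF1+NRF1-ΔE7 libraries only, whereas SDHB, SDHC and SDHD are low in siNRF1 libraries of all 3 backgrounds.

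The other 3 subunits fell with siNRF1 in every background, and none passed the test for NRF1-FL against no transgene under siNRF1. SDHC, a membrane anchor, had the largest change of all members. Its RNA was at 92.5, 94 and 90.9 CPM in siNRF1 libraries, against 212, 208 and 222 CPM in siNT libraries. In siNRF1+NRF1-FL libraries it stayed at 92.2, 92.1 and 90.1 CPM, against 207, 215 and 224 CPM in siNT+NRF1-FL libraries, and in siNRF1+NRF1-ΔE7 libraries at 92.7, 92.8 and 98.9 CPM, against 227, 231 and 235 CPM in siNT+NRF1-ΔE7 libraries. No siNRF1 library of any background overlapped a siNT library. The log2 fold change was -1.21 ± 0.0336 (SE) without a transgene (adjusted p = 5.3e-19), -1.24 ± 0.0336 in the FL line (adjusted p = 4.2e-19) and -1.28 ± 0.0332 in the ΔE7 line (adjusted p = 1.1e-19), all from edgeR. Under siNRF1, NRF1-FL against no transgene gave -0.01 (95% interval -0.09 to 0.06, adjusted p = 0.824), where SDHA, on the same libraries, differed by 0.77.

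SDHD, the other membrane anchor, was at 58.5, 56.7 and 60.4 CPM in siNRF1 libraries, against 81.1, 81.7 and 82.9 CPM in siNT libraries. It was at 56.3, 58.7 and 56.1 CPM in siNRF1+NRF1-FL libraries, against 76.6, 77.9 and 81.1 CPM in siNT+NRF1-FL libraries, and at 54.2, 54.6 and 57.7 CPM in siNRF1+NRF1-ΔE7 libraries, against 79.3, 80.4 and 85 CPM in siNT+NRF1-ΔE7 libraries. The log2 fold changes were -0.48, -0.46 and -0.56 (edgeR, adjusted p at most 9.2e-11), and NRF1-FL against no transgene under siNRF1 gave -0.04 (95% interval -0.11 to 0.04, adjusted p = 0.518). SDHB, the iron-sulfur subunit, changed least of the 4 subunits without a transgene. Its RNA was at 128, 130 and 127 CPM in siNRF1 libraries, against 164, 162 and 161 CPM in siNT libraries. It was at 128 to 134 CPM in siNRF1+NRF1-FL libraries, against 152 to 158 CPM in siNT+NRF1-FL libraries, and at 127 to 130 CPM in siNRF1+NRF1-ΔE7 libraries, against 159 to 163 CPM in siNT+NRF1-ΔE7 libraries. Its log2 fold changes were -0.34, -0.25 and -0.32 (edgeR, adjusted p at most 1.8e-08). NRF1-FL against no transgene under siNRF1 gave 0.03 for SDHB (95% interval -0.02 to 0.09, adjusted p = 0.461).

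The subunits therefore differed in level and in order between conditions. Per kilobase of canonical transcript, SDHC was at 70.7 ± 1.21 CPM per kb in siNRF1 and 164 ± 5.64 in siNT libraries (SD, n = 3 each), SDHB at 126 ± 1.53 and 160 ± 1.71, SDHA at 50.9 ± 1.56 and 86.8 ± 1.65, and SDHD at 43.7 ± 1.36 and 61.2 ± 0.682, in the same order of groups. SDHB was thus the highest with siNRF1, whereas with siNT the libraries of SDHC (159 to 170 CPM per kb) and SDHB (159 to 162) overlapped. In siNRF1+NRF1-FL libraries SDHA, at 86.7 ± 2.42 CPM per kb, was above SDHC, at 69.9 ± 0.902. The assembly factors were lower. In siNRF1 and siNT libraries, SDHAF3 was at 20.3 and 33.8 CPM per kb, SDHAF1 at 35.3 and 31.9, SDHAF2 at 14.4 and 13.8 and SDHAF4 at 6.54 and 7.37. On this scale SDHAF3 was above SDHAF1 in siNT libraries, with no overlap, and below it in siNRF1 libraries. These orders rest on the canonical length. With the summed exons of all transcripts (8703 nt for SDHA, against 2693 nt), SDHA was at 26.9 CPM per kb in siNT libraries and below SDHD at 29.4, SDHC at 113 was above SDHB at 66.4, and SDHAF3 at 27 was below SDHAF1 at 31.9. On that length SDHA, at 26.8 CPM per kb, was also below SDHC, at 48.1, in siNRF1+NRF1-FL libraries.

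As a share of the 4 subunits on the per-kilobase scale, SDHA made up 17.4 ± 0.392% in siNRF1 and 18.4 ± 0.286% in siNT libraries (SD, n = 3 each). In the FL line its share was 26.4 ± 0.590% in siNRF1+NRF1-FL and 18.8 ± 0.312% in siNT+NRF1-FL libraries, and in the ΔE7 line 16.9 ± 0.387% in siNRF1+NRF1-ΔE7 and 18.2 ± 0.657% in siNT+NRF1-ΔE7 libraries. The 3 siNRF1+NRF1-FL libraries, at 25.9 to 27.0%, were above all others. The share of SDHC was lowest in the same libraries, at 21.3 ± 0.283%, against 35.4 ± 1.04% in siNT+NRF1-FL libraries. Without scaling by length the share of SDHA was 45.5% in siNRF1+NRF1-FL libraries, against 34.3% in siNT+NRF1-FL libraries. These shares contain SDHA and carry no test.

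**Figure D3:**
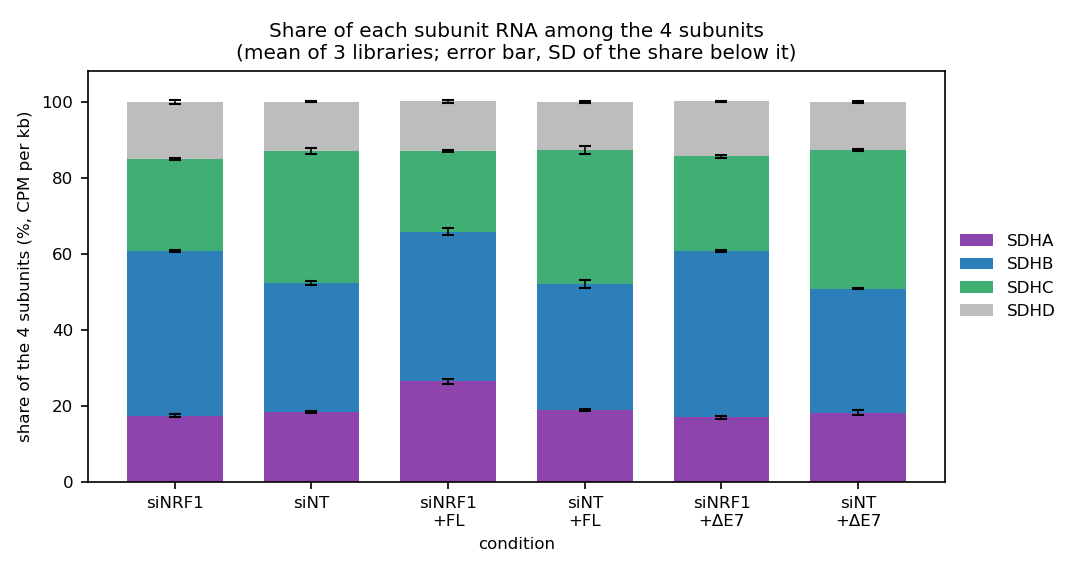
Share in percent of each subunit RNA among the 4 subunits (CPM per kb of canonical transcript), as the mean of 3 libraries per condition, with the SD of each share at the top of its segment. SDHA takes 26.4% in siNRF1+NRF1-FL cells and 16.9 to 18.8% in the other 5 conditions.

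Among the assembly factors, SDHAF3, which protects the iron-sulfur clusters of SDHB in its maturation, fell with siNRF1 and was in part higher with NRF1-FL. Its RNA was at 21.0, 18.3 and 18.8 CPM in siNRF1 libraries, against 32.3, 32.3 and 32.1 CPM in siNT libraries. It was at 22.4, 21.7 and 23.8 CPM in siNRF1+NRF1-FL libraries, against 30.5, 32.1 and 31.9 CPM in siNT+NRF1-FL libraries, and at 17.2, 18.8 and 18.9 CPM in siNRF1+NRF1-ΔE7 libraries, against 29.2, 29.9 and 29.4 CPM in siNT+NRF1-ΔE7 libraries. Its siNRF1 libraries were below its siNT libraries in every background, and the siNRF1+NRF1-FL libraries were above those of siNRF1 and of siNRF1+NRF1-ΔE7 with no overlap. The log2 fold changes with siNRF1 were -0.73, -0.48 and -0.69 (edgeR, adjusted p at most 1.6e-08). Under siNRF1, NRF1-FL against no transgene gave 0.22 ± 0.0527 (SE, adjusted p = 0.00354, and 4.9e-04 to 0.0409 over 25 alternatives), and NRF1-ΔE7 against NRF1-FL -0.31 ± 0.0523 (adjusted p = 7.8e-05, and 1.7e-06 to 0.00132). SDHAF3 thus moved with NRF1-FL in the direction of SDHA, but it was far from the siNT level with NRF1-FL.

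SDHAF4, which binds SDHA before it joins SDHB, was the least abundant member, at 240 to 391 counts per library. Its RNA was at 8.29, 7.11 and 7.82 CPM in siNRF1 libraries, against 8.68, 8.84 and 8.64 CPM in siNT libraries. It was at 9.42, 9.23 and 9.69 CPM in siNRF1+NRF1-FL libraries, against 8.57, 9.38 and 8.86 CPM in siNT+NRF1-FL libraries, and at 8.35, 8.79 and 7.69 CPM in siNRF1+NRF1-ΔE7 libraries, against 8.46, 8.57 and 9.32 CPM in siNT+NRF1-ΔE7 libraries. Under siNRF1 it was higher with NRF1-FL than without a transgene by 0.28 ± 0.0709 (SE, log2, adjusted p = 0.00523, and 0.00363 to 0.0481 over 25 alternatives, edgeR or DESeq2). Its value for siNRF1 against siNT without a transgene was -0.17 ± 0.0723 (adjusted p = 0.0478). That call was lost in 17 of 25 alternatives, with log2 fold changes from -0.22 to -0.08, among them 11 in which 1 library was left out: each of the 3 siNT and the 3 siNRF1+NRF1-FL libraries, siNRF1 replicates 2 and 3, siNT+NRF1-FL replicate 3, siNT+NRF1-ΔE7 replicate 2 and siNRF1+NRF1-ΔE7 replicate 1. Without siNRF1 replicate 2 the value was -0.12 (adjusted p = 0.202). Its value for NRF1-ΔE7 relative to NRF1-FL under siNRF1, -0.19 ± 0.0695 (adjusted p = 0.0375), was likewise lost with DESeq2 (adjusted p = 0.117) and without any 1 of the 3 siNRF1+NRF1-FL libraries (adjusted p of 0.084, 0.0641 and 0.123) or siNRF1+NRF1-ΔE7 replicate 1 (0.0706) or 3 (-0.13, adjusted p = 0.211), and ranged from 0.0291 to 0.211 over the 25 alternatives.

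SDHAF1, a partner of the iron-sulfur transfer machinery, was the 1 member that passed the test as higher with siNRF1 in every background. Its RNA was at 41, 40.1 and 38 CPM in siNRF1 libraries, against 37.3, 34.7 and 35.6 CPM in siNT libraries. It was at 42.1, 41 and 41.8 CPM in siNRF1+NRF1-FL libraries, against 33.8, 31.7 and 34 CPM in siNT+NRF1-FL libraries, and at 41.8, 40.1 and 42.5 CPM in siNRF1+NRF1-ΔE7 libraries, against 36, 34.3 and 34.5 CPM in siNT+NRF1-ΔE7 libraries. The groups did not overlap in any background, and the log2 fold changes were 0.14 (adjusted p = 0.00381), 0.33 (2.4e-07) and 0.25 (8.9e-06, all edgeR). SDHAF2, which promotes the attachment of FAD to SDHA, was at 15.6 to 21.4 CPM in the 9 siNRF1 libraries of the 3 backgrounds, against 14.8 to 18.3 CPM in the 9 siNT libraries, and these ranges overlap. With TMM scaling it passed the test only in the ΔE7 line, by 0.22 ± 0.0854 (SE, log2, edgeR adjusted p = 0.0275), and not without siNRF1+NRF1-ΔE7 replicate 3 (0.11, adjusted p = 0.272), siNT+NRF1-ΔE7 replicate 1 (0.19, 0.0997) or siNT+NRF1-ΔE7 replicate 2 (0.19, 0.102). In the other 2 backgrounds SDHAF2 gave 0.06 (adjusted p = 0.573) and 0.15 (adjusted p = 0.142), and in the FL line 0.23 with upper-quartile scaling (adjusted p = 0.0259).

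Of the 7 members other than SDHA, 5 fell and 1 rose in siNRF1 relative to siNT cells without a transgene (edgeR, adjusted p under 0.05), where 32.4% of 17962 tested genes were lower and 32.1% higher. In the FL line 4 were lower and 1 higher (31.3% and 32.2% of tested genes), and in the ΔE7 line 4 lower and 2 higher (33.6% and 34.5%). With the study's threshold added, an absolute log2 fold change above 0.5, the counts were 2, 1 and 3 of 7, against 28.9%, 27% and 32.8% of tested genes. Under siNRF1, NRF1-ΔE7 against NRF1-FL gave 2 lower (SDHAF3 and SDHAF4) and 0 higher, where 17.8% of tested genes were lower and 13.9% higher, or 56.2% of calls lower, against 45.9% with upper-quartile scaling. With the threshold added 0 of 7 remained (6.2% of tested genes). NRF1-FL against no transgene under siNRF1 gave the same 2 genes as higher (12.7% of tested genes were). Whether the share of members called differs from that of all genes was not tested.

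NRF1-ΔE7 against no transgene under siNRF1 called 0 of the 7 by edgeR and 0 by DESeq2, and 1 at an unadjusted p under 0.05 (21.4% of tested genes were called). SDHA differed there by -0.06. Among siNT libraries, NRF1-FL against no transgene called 0 of 7 by edgeR (8.14% of tested genes at an adjusted p under 0.05). DESeq2 called 0 of 7, and 2 of 7 had an unadjusted p under 0.05 by edgeR. SDHC alone was higher with NRF1-ΔE7 under siNT, by 0.10 ± 0.0319 against NRF1-FL (adjusted p = 0.0351, edgeR, 1 of 7 members and 15.6% of tested genes) and by 0.11 ± 0.0320 against no transgene (adjusted p = 0.0212, 1 of 7 and 16.3%). The first call was lost without siNT+NRF1-FL replicate 1 (0.07, adjusted p = 0.191) or 2 (0.10, 0.0907) and without siNT+NRF1-ΔE7 replicate 1 (0.11, 0.0504), 2 (0.10, 0.0824) or 3 (0.09, 0.136). The second was lost without siNT replicate 1 (0.10, 0.0775) or 2 (0.09, 0.105) and siNT+NRF1-ΔE7 replicate 2 (0.11, 0.0544) or 3 (0.10, 0.0911).

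**Figure D4:**
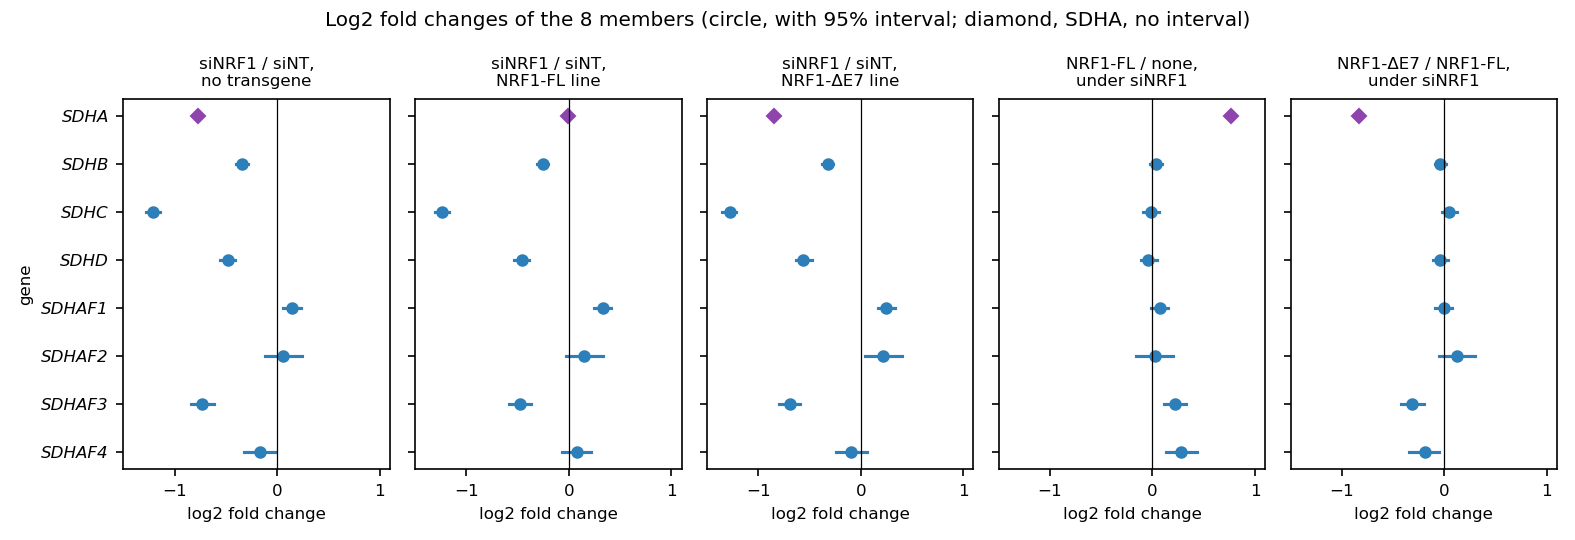
Log2 fold change in 5 comparisons of SDHA (diamonds, with no interval, since these values chose the gene) and of the 7 other members (circles, with the 95% interval derived from the edgeR F statistic). SDHB, SDHC and SDHD lie left of 0 in the 3 comparisons of siNRF1 with siNT and near 0 for NRF1-FL against no transgene under siNRF1, where SDHA lies at 0.77, SDHAF3 at 0.22 and SDHAF4 at 0.28.

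Whether the response to siNRF1 itself differed between lines was tested as a difference of differences. In the FL line against cells without a transgene, SDHAF3 alone passed the test of the 7 members (with a replicate block SDHAF1 passed too, at 0.18, adjusted p = 0.0398, against 0.0698 without it), with a difference of 0.25 ± 0.0720 (SE, log2, edgeR adjusted p = 0.0396, range 0.00612 to 0.141 over 25 alternatives, of which 10 passed), where 5.34% of tested genes were called. The values for SDHB, SDHC and SDHD were 0.09, -0.02 and 0.02 (adjusted p = 0.244, 0.880 and 0.899), with 95% intervals of 0.01 to 0.17, -0.12 to 0.07 and -0.08 to 0.13, and SDHA, described with no test, gave 0.76. SDHAF4 gave 0.25 (adjusted p = 0.208). In the ΔE7 line against cells without a transgene 0 of 7 were called by edgeR (2.03% of tested genes at an adjusted p under 0.05). The same 0 of 7 held by DESeq2 and at an unadjusted p under 0.05, and SDHA gave -0.08. The interaction of isoform and siRNA called 0 of 7 by edgeR (7.21% of tested genes at an adjusted p under 0.05) and 0 by DESeq2. Of the 7, 1 had an unadjusted p under 0.05 by edgeR. That 1 was SDHAF3, at -0.21 ± 0.0718 (adjusted p = 0.0763, and 0.0436 without siNRF1 replicate 1), while SDHA gave -0.84.

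The motif counts of the promoter windows are set beside these values as a description, leaving out SDHA, whose response chose it, and SDHC, which had no window. For NRF1-FL against no transgene under siNRF1, SDHAF3 with 2 matches was at 0.22, SDHAF4 with 1 at 0.28 and SDHD with 1 at -0.04, while SDHB, SDHAF1 and SDHAF2 with none were at 0.03, 0.07 and 0.02. For siNRF1 against siNT without a transgene, SDHAF3 was at -0.73, SDHAF4 at -0.17 and SDHD at -0.48, while SDHB, SDHAF1 and SDHAF2 were at -0.34, 0.14 and 0.06. Members with and without a match thus fell, and SDHC, the member with the largest change, was not searched. Binding of NRF1 to these windows was not measured here.

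SDHA has near-identical pseudogene copies, and its count is uncertain to the extent that reads were split between them. SDHAP1, SDHAP2 and SDHAP3 together amounted to 4.38 to 7.21% of SDHA in every library. SDHAP3 was at 3.96, 3.97 and 3.5 CPM in siNRF1 libraries, against 7.98, 7.16 and 7.60 CPM in siNT libraries, and at 6.54, 6 and 7.58 CPM in siNRF1+NRF1-FL libraries, against 7.76, 7.96 and 8.30 CPM in siNT+NRF1-FL libraries. SDHAP1 was at 3.29 to 4.34 CPM in siNRF1 libraries, against 5.08 to 5.28 CPM in siNT libraries, and at 5.41 to 6.62 CPM in siNRF1+NRF1-FL libraries, against 4.18 to 5.66 CPM in siNT+NRF1-FL libraries. SDHAP2 was at most 1.61 CPM. These values carry no test because they may hold reads of SDHA, and added to SDHA they gave means of 145 CPM in siNRF1 and 247 CPM in siNT libraries, 247 and 248 CPM in siNRF1+NRF1-FL and siNT+NRF1-FL libraries, and 140 and 249 CPM in siNRF1+NRF1-ΔE7 and siNT+NRF1-ΔE7 libraries. The other 7 pseudogenes of subunits that were counted had at most 5 counts in any library. SDHAP4, SDHBP1, SDHDP3, SDHDP4 and SDHDP5 of GENCODE v44 had no entry under these names among the 58870 genes. The sums therefore leave out SDHAP4, a further transcribed copy of SDHA.

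The 5 genes whose pattern over the 6 condition means was nearest to that of SDHA, by the root mean square difference of centred log2 CPM among 10415 genes with at least 10 CPM, were MOCS2 (0.0542), NBPF9 (0.0642), DPF2 (0.0658), SMAD4 (0.0662) and TMEM106C (0.0714). MOCS2, which encodes subunits of molybdopterin synthase, averaged 29.3 CPM in siNRF1 and 52.2 CPM in siNT libraries, and 52.4 CPM in siNRF1+NRF1-FL and 55.9 CPM in siNT+NRF1-FL libraries. Of the other members SDHAF3 was the nearest to SDHA, at rank 201 with a difference of 0.188, followed by SDHD at rank 1095 (0.267) and SDHB at rank 1513 (0.282), while SDHC, with its larger and unrestored change, was at rank 6764 (0.449). SDHAF4 was below the level needed for this ranking.

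The enzymes on either side of succinate dehydrogenase in the TCA cycle are given as a list of 14 genes, all of which were tested. With siNRF1 10 were lower and 3 higher without a transgene, with a median log2 fold change of -0.26 (all tested genes, 0.01), 11 and 3 in the FL line, and 10 and 3 in the ΔE7 line. The shares over all tested genes were 32.4% lower and 32.1% higher, 31.3% and 32.2%, and 33.6% and 34.5%. IDH3A, the catalytic subunit of NAD-dependent isocitrate dehydrogenase, fell by 1.95 on the log2 scale without a transgene, and DLST, the succinyltransferase of the 2-oxoglutarate dehydrogenase complex, by 0.99 (edgeR, adjusted p = 6.0e-23 and 1.6e-18). In the FL line siNRF1 against siNT gave -1.64 for IDH3A and -1.05 for DLST. Under siNRF1, NRF1-ΔE7 against NRF1-FL left 5 lower and 1 higher, with a median of -0.02 (all tested genes, 17.8% lower, 13.9% higher and a median of 0.00). The largest of these were SUCLA2 and SUCLG2, the ATP- and GTP-forming beta subunits of succinyl-CoA ligase, which makes the succinate that SDHA oxidises, at -0.66 and -0.49 (adjusted p = 4.2e-12 and 2.7e-07). SUCLA2, like SDHA and SDHAF3, was higher with NRF1-FL than without a transgene under siNRF1 (0.55, adjusted p = 1.2e-10), while SUCLG2 gave -0.05 (adjusted p = 0.61). Both were lower in the ΔE7 line under siNT too, SUCLA2 by a log2 fold change of -0.31 and SUCLG2 by -0.46 relative to NRF1-FL (adjusted p = 1.5e-06 and 2.1e-06).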

How the data were processed

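Polyadenylated RNA of 18 HEK293 Flp-In samples was sequenced from stranded libraries. Per the submitters' processing notes, the authors used Cutadapt 1.18 for trimming and STAR 2.7.0f for mapping to hg38. DESeq2 1.46.0 is named there too. The deposited values are unnormalized estimated counts for each gene, and 91.9% of them are whole, over all 58870 genes and with zeros included. The share among the tested genes alone was not computed. In the sources used here the counting program and its use of strand are not given. A further 18 columns of per-library values, whose names match none of the samples described here, were not used.

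Counts were rounded and filtered by filterByExpr with a minimum count of 10, leaving 17962 of 58870 genes, and scaled by TMM (factors 0.944 to 1.07). The quasi-likelihood F test of edgeR 4.0.16 (R 4.3.3) was fitted to the 18 libraries together, each condition having its own mean, with 12 residual degrees of freedom and a biological coefficient of variation of 0.0337. Tests are two-sided, with Benjamini-Hochberg adjustment over all tested genes. This test gives no SE, so the SE was derived as the absolute log2 fold change divided by the square root of the F statistic. The 95% intervals use that SE and a t quantile with the prior and residual degrees of freedom of the fit. The fit was tested on simulated counts in which few genes changed, up and down alike, in 1 condition. Many more genes were called in these data, a situation that was not simulated. No source says that the 3 libraries of a condition were separate cultures, so the p-values reflect only how far these libraries spread, which may be technical. Counts of different libraries of 1 condition differed by more than sampling noise.

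Levels per kb use canonical GENCODE v44 transcripts of hg38. The authors' annotation is earlier. Promoters are from RefSeq. The members, the lists and the comparisons were chosen with earlier results of these data known. Named were all members, NRF1, the pseudogenes of the subunits, at most 2 genes per list for siNRF1 against siNT without a transgene and for NRF1-ΔE7 relative to NRF1-FL under siNRF1, and 5 genes most like SDHA. The alternatives tried were scaling by RLE or upper quartile, leaving out the filter or asking for 10 counts in every library, DESeq2 1.42.0, only the compared libraries, the replicate number as a block, a fold threshold of 0.5 (log2) and leaving out each library. Python 3.11.15 with pandas 2.3.3 and matplotlib 3.10.9 was used.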

Additional observations from a re-analysis of the deposited data

Results flagged for a closer look

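The response of SDHAF3 to siNRF1 differed between the FL line and cells without a transgene by 0.25 on the log2 scale (edgeR, adjusted p = 0.0396), which was the test of the difference itself. Its siNRF1 response was -0.48 in the FL line and -0.73 without a transgene. The call was not stable: it was lost with RLE scaling (adjusted p = 0.0562), with DESeq2 (0.0664) and when 1 of 13 libraries was left out, each of the 3 siNT, the 3 siNT+NRF1-FL, siNRF1 replicates 2 and 3, siNRF1+NRF1-FL replicates 1 and 3, siNT+NRF1-ΔE7 replicates 1 and 2, and siNRF1+NRF1-ΔE7 replicate 2. Without siNRF1+NRF1-FL replicate 3 the value was 0.21 (adjusted p = 0.141).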

How the results depend on the processing

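The values of siNRF1 against siNT for SDHB, SDHC, SDHD, SDHAF1 and SDHAF3 in all 3 backgrounds kept their direction and passed the test in all 25 alternatives run on each. Over the members tested, 2117 of 2175 alternative values stayed on their side of the threshold, 53 lost and 5 gained a call, and none turned round after a call. Most of these values belong to results with no call to lose, and most left-out libraries were not in the comparison concerned. With upper-quartile scaling, which moved the median of all genes by 0.08 to 0.10 in the siNRF1 comparisons, SDHA was at -0.68 without a transgene, 0.08 in the FL line and -0.75 in the ΔE7 line. That scaling also moved the lower share of calls for NRF1-ΔE7 relative to NRF1-FL under siNRF1 to 45.9%, against 56.2% with TMM. The count of members for that comparison was 1, against 2 with all libraries and TMM, with upper-quartile scaling, no filter, DESeq2 or only the compared libraries, and 1 to 2 when 1 library was left out. With the fold threshold the counts were 2, 1 and 3 for siNRF1 against siNT without a transgene, in the FL line and in the ΔE7 line, and 0 for NRF1-ΔE7 relative to NRF1-FL under siNRF1 or siNT, NRF1-ΔE7 against no transgene under siNT, NRF1-FL against no transgene under siNRF1 and the difference of siRNA responses between the FL line and no transgene. That last count was 0 with RLE scaling or DESeq2, and 0 to 1 when 1 library was left out. NRF1-ΔE7 against no transgene under siNT gave 2 with only the compared libraries and 0 to 1 when 1 library was left out, as did NRF1-ΔE7 relative to NRF1-FL under siNT and the interaction, at 0 to 1. Beside the fold threshold and the settings that use fewer libraries or genes, the cause was not tested. Replicate numbers did not meet the criterion for pairing, that every same-numbered pair correlate above 0.1: 18 of 45 did (-0.27 to 0.31, median 0.06), against 18 of 90 different-numbered pairs (median -0.03). As a hint from the data, 11 of 18 samples correlated best with their own number. With the replicate block the count for the difference of siRNA responses in the FL line was 2 (SDHAF1 and SDHAF3), against 1 without it, and the other counts stayed within 1.5 times. SDHAF4 had the lowest counts of the members, at 240 to 391 per library, and the effect of depth on its calls was not tested.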

Other observations

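Partners of succinate dehydrogenase outside the TCA cycle are given as 3 lists, to be read against the 32.4% of tested genes that were lower and the 32.1% that were higher with siNRF1 without a transgene. Of 9 nuclear genes of complex III, which takes electrons from ubiquinol, 6 fell and 1 rose in siNRF1 relative to siNT cells without a transgene, with a median log2 fold change of -0.15. UQCRC1 and UQCRC2, its core subunits, were at -0.60 and -0.48 (edgeR, adjusted p = 8.5e-13 and 2.9e-13), and at -0.28 and -0.41 in the FL line. Under siNRF1 UQCRC1 was lower in the ΔE7 line than in the FL line (log2 fold change -0.33, adjusted p = 1.3e-07). Of 11 genes that supply iron-sulfur clusters and FAD, 4 were lower and 5 higher with siNRF1, with a median of -0.08. RFK, the riboflavin kinase, and ISCU, the scaffold on which clusters are made, were higher by 0.72 and 0.54 (adjusted p = 2.7e-13 and 2.3e-13). In the FL line siNRF1 against siNT gave 0.80 for RFK and 0.55 for ISCU. Under siNRF1, FDX2, a ferredoxin of cluster assembly, was at -0.38 and NFS1, its cysteine desulfurase, at 0.31 for NRF1-ΔE7 against NRF1-FL (adjusted p = 3.0e-06 and 3.9e-06). Both also differed between these lines under siNT (FDX2 -0.25, NFS1 0.15, adjusted p = 0.00117 and 0.0181), and neither passed the interaction of isoform and siRNA (adjusted p = 0.327 and 0.145).

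Of 6 other dehydrogenases that reduce ubiquinone, 2 were lower and 3 higher with siNRF1 without a transgene, with a median of 0.20. GPD2, the mitochondrial glycerol-3-phosphate dehydrogenase, fell by 2.64 on the log2 scale (adjusted p = 1.5e-23), more than any member of succinate dehydrogenase, and PRODH, proline dehydrogenase, was higher by 0.70 (adjusted p = 4.8e-04, edgeR). In the FL line siNRF1 against siNT gave -2.71 for GPD2 and 0.79 for PRODH. Under siNRF1, NRF1-FL against no transgene gave 0.03 for GPD2 and 0.18 for PRODH. Under siNRF1, DHODH of pyrimidine synthesis was at -0.27 and ETFDH, which receives electrons from fatty acid oxidation, at 0.21 for NRF1-ΔE7 against NRF1-FL (adjusted p = 0.00262 and 6.9e-05).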
